A study of Mus musculus with 16 samples.

Results

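The subject is the set of nuclear genes that encode subunits of the mitochondrial respiratory chain and of ATP synthase, read in mouse HM1 ovarian tumours and in the CD8 T cells sorted from them. Members were taken by symbol, not by measured value: names that begin with Ndufa, Ndufb, Ndufc, Ndufs or Ndufv and a digit, with Uqcr, with Cox4 to Cox8 or with Atp5, and the names Sdha to Sdhd, with numbered pseudogenes left out. This gave 96 of the 52916 symbols listed in all 16 libraries. Complex I holds 40 of them, complex II 4, complex III 8, complex IV 21 and complex V, the ATP synthase, 17, while 6 are symbols of unnumbered pseudogenes. Ndufa4 and Ndufa4l2 are counted with complex IV, where the Ndufa4 protein is known to sit. Ndufab1, Cyc1 and Cycs, which also belong to the chain, do not match the symbols and stand in a separate list.

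RNA was measured in bulk in 10 libraries of whole tumour tissue, 5 control and 5 with mannose, a simple sugar, as a supplement, and in 6 libraries of sorted CD8 T cells, 3 control and 3 with mannose. HM1 is a mouse ovarian carcinoma line, so all groups carry the same tumour. Mouse strain and age, the dose and duration of mannose, the way of sorting, and whether any group received the anti-PD-1 antibody named in the series title are not given in the sources used here. The labels number the replicates without saying that they are separate animals, so p-values measure only the spread between these samples, which may be technical. Inside all 6 CD8 tables, those of the 3 controls included, the column of values bears a mannose name, so every CD8 direction below rests on the sample labels. Values are TPM, a unit of transcript abundance that corrects for transcript length and fixes the total of each library. Read depth is unknown.

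The respiratory chain sits in the inner mitochondrial membrane. Complex I takes electrons from NADH and complex II takes them from succinate, both hand them to coenzyme Q, complex III passes them to cytochrome c, and complex IV gives them to oxygen. Complexes I, III and IV pump protons, and ATP synthase uses the return flow to make ATP. Most subunits are encoded in the nucleus, and a small number of core subunits of all complexes but complex II are encoded in mitochondrial DNA. Effector T cells are known to draw on both glycolysis and respiration, and lasting stimulation in tumours is known to go with poor mitochondrial function. Several subunits of complex IV have a second isoform with restricted tissue use, such as Cox6a2, Cox7a1 and Cox8b in heart and skeletal muscle and Cox6b2 in testis.

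Genes for subunits are known to share promoter elements, above all sites for nuclear respiratory factor 1 (NRF1) and for the ETS family factor GABP, also called NRF2. In RefSeq promoters (build GRCm38.p6), 69 of the 96 members were matched. The 250 bases before the start were searched on both strands. The NRF1 core GCATGCGC was found in 8 of the 69, or 11.6%, against 2.56% of 27025 symbols and 4.83% of the 10309 symbols that reached 1 TPM in at least 3 CD8 libraries. The full NRF1 palindrome, which is the core with GC before it and so overlaps it, was present in 4, or 5.80%, against 0.877% of all symbols and 1.81% of those expressed. The ETS motif CCGGAAG was found in 12, or 17.4%, against 7.83% of all symbols and 15.5% of those expressed. Of the 10 members that passed the test in CD8 T cells, 8 were matched, and the core was present in 2 of these and the ETS motif in 1. The windows of 3 of them, all lower in the CD8 comparison below, are shown. They are the 2 with the core, Sdhb and Atp5l, and Cox5b, which carries neither motif. Their share of matches is therefore not that of the 8. Sdhb lies at chr4:140961021-140961270 on the plus strand, Atp5l at chr9:44920743-44920992 on the minus strand and Cox5b at chr1:36691237-36691486 on the plus strand. They are written 5′ to 3′ towards the start, with motif matches on either strand in capitals.
Sdhb: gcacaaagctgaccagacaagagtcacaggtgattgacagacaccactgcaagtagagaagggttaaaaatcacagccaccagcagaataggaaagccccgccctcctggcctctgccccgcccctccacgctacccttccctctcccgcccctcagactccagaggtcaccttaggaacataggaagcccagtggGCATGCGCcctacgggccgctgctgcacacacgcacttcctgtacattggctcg
Atp5l: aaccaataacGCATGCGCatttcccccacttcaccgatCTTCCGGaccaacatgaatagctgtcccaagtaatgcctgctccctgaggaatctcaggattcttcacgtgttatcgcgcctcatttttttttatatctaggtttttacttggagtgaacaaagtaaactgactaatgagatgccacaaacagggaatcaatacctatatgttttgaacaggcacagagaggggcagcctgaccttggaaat
Cox5b: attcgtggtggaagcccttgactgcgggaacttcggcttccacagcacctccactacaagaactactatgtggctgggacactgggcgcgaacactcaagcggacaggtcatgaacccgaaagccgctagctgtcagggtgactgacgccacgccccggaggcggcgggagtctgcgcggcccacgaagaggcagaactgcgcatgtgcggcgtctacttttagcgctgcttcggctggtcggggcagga
A match describes letters in the window, and the lack of one says nothing about binding.

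Members were among the more abundant transcripts of every library. At least 10 TPM in all 16 libraries was reached by 78 of the 96, and 7 reached 1 TPM in none. Ndufs6b, Cox7b2, Cox8c and the pseudogene Atp5c1-ps were listed at 0 throughout. In each tissue 84 members passed the filter, which asks for 1 TPM or more in 3 CD8 or 5 tumour libraries, and the 12 that did not were low copies, restricted isoforms or pseudogenes. Ndufb4c, a copy of Ndufb4, measured 148 ± 7.37 TPM in control CD8 libraries (SD, n = 3) and Ndufb4 itself 16.7 ± 0.846 TPM, and as the sequences are near-identical the assignment of reads between them is uncertain. The summed TPM of all members was 18542 to 23707 in control tumours, 19138 to 20758 in mannose tumours, 16207 to 17931 in control CD8 libraries and 15362 to 15812 in mannose CD8 libraries. Complex V held 30.0% to 34.3% of the members' TPM in control tumours and 35.2% to 35.5% in control CD8 libraries, complex IV 28.2% to 30.1% and 25.4% to 26.6%, and complex II, with 4 subunits, 1.78% to 2.33% and 2.19% to 2.59%.

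Within each complex the subunits differed widely in level. Atp5b, the catalytic beta subunit of ATP synthase, was highest in control tumours with 1488 ± 426 TPM (SD, n = 5), and Cox4i1, a regulatory subunit of complex IV, in control CD8 libraries with 826 ± 23.8 TPM (SD, n = 3). In complex I the highest mean over all libraries was that of Ndufa7 (386 ± 57.2 TPM in control tumours and 208 ± 11.1 TPM in control CD8 libraries) and the lowest that of Ndufb4. In complex III, Uqcr10 was highest and the core protein Uqcrc2 lowest in control tumours (671 ± 80.8 and 83.9 ± 14.1 TPM), while in control CD8 libraries Uqcrh was highest and Uqcrfs1 lowest (549 ± 21.6 and 75.7 ± 2.60 TPM). In complex II, Sdhd, a membrane anchor, was highest in control tumours (141 ± 13.3 TPM) and Sdhb in control CD8 libraries (130 ± 2.63 TPM). The 3 genes for the membrane ring subunit c encode the same mature protein, and Atp5g3 supplied 51.3% to 57.1% of their TPM in control tumours and 62.5% to 65.9% in control CD8 libraries. Atp5g2 supplied 3.86% to 5.43% and 2.93% to 5.14%. The median coefficient of variation of a member was 17.6% in control tumours, 9.24% in mannose tumours, 6.87% in control CD8 libraries and 6.31% in mannose CD8 libraries.

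Several facts about the libraries bear on what follows. Control CD8 libraries 1 and 2 were alike in their use of 22 T cell receptor beta V segments (Pearson r = 0.966 across segments), as were mannose CD8 libraries 1 and 2 (r = 0.962), while the other pairs lay between 0.378 and 0.779. Results are therefore also given with each like pair averaged. The sorted libraries held RNA of other cells: 12 macrophage and monocyte markers summed to 4720 to 5067 TPM in control and 1607 to 2023 TPM in mannose CD8 libraries, beside 6127 to 6715 and 3218 to 6099 TPM of 12 T cell markers. All 12 T cell markers had a lower mean with mannose. Epithelial and carcinoma markers summed to 261 to 579 TPM in control and 1748 to 2673 TPM in mannose CD8 libraries, fibroblast markers to 60.4 to 171 and 312 to 490 TPM and neutrophil markers to 1045 to 1265 and 266 to 469 TPM, while 5 B cell markers summed to 1.76 to 2.18 and 0.46 to 0.87 TPM, with Ms4a1 at 0 in all 6. The part of these shifts in the results was not tested, and in bulk samples fewer cells of a type and less RNA per cell cannot be told apart. Among tumours, control 1 was the least like the others (mean correlation 0.947, against at least 0.960).

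The comparison of mannose with control CD8 T cells asks how subunit transcripts differed between the sorted libraries with and without the supplement. Changes said to be in CD8 T cells are those of the sorted libraries, other cells included. Of 84 tested members 59 had a lower mean with mannose on the TPM scale, although 41 had a higher one after quantile normalization. By the test 9 fell and 1 rose (10.7% and 1.19%), against 11.7% and 23.2% of all genes. The falls covered complexes I, II, IV and V: Ndufa1 and Ndufs8, Sdhb, Cox4i1, Cox5a, Cox5b and Cox6b2, and Atp5l and Atp5o. The rise was that of Ndufa4l2, an isoform known to be induced by hypoxia. Apart from Cox6b2 and Ndufa4l2, which moved more than 2-fold, the changes were smaller than 1.5-fold, with Cox5a and Cox5b at a factor of 0.674 and 0.687.

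By limma with Benjamini-Hochberg adjustment over all genes, 10 of 84 members, or 11.9%, passed, against 34.9% of the 14280 genes tested. Of all genes 23.2% rose and 11.7% fell, and of the members 1.19% rose and 10.7% fell, so the share of members that fell was near that of all genes and the share that rose was below it. At an unadjusted p under 0.05 there were 21 members, against 46.3% of all genes. With the like libraries averaged, 0 members passed and 11 had an unadjusted p under 0.05, while 1091 genes in all rose and 561 fell. The 10 then kept their signs, with adjusted p from 0.0582 for Cox6b2 to 0.228 for Cox4i1. The members' median log2 difference was -0.12, with 25 positive and 59 negative, against 0.09 for all genes. After quantile normalization the medians were -0.01 and -0.03, and after median-ratio scaling -0.24 and -0.02, so the shortfall of the members against all genes was present under the TPM and median-ratio scales and not under quantile normalization. All 3 mannose libraries were below all 3 controls for 26 members and above them for 6, against 18.1% and 33.3% of all genes (51.4% in either direction).

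**Figure D1:**
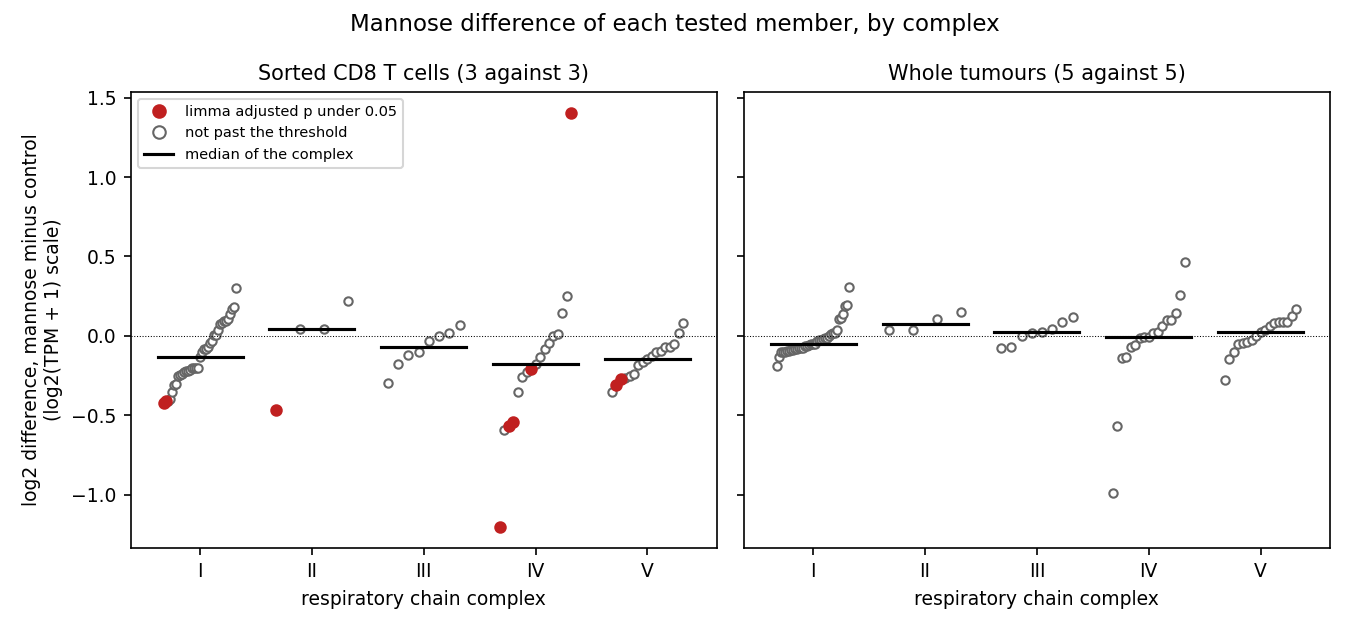
Log2 difference (mannose minus control, log2(TPM + 1) scale, vertical axis) of each tested member, grouped by respiratory chain complex, in sorted CD8 T cells (left) and whole tumours (right). Filled points passed limma's adjusted threshold of 0.05 and bars are the medians of the complexes. The 10 filled points are all in the CD8 panel, 9 of them below 0, and the medians of complexes I, III, IV and V lie between -0.07 and -0.18 there.

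Complex I, the entry point for NADH, had 2 of 37 tested members lower and 0 higher (5.41% and 0%), against 11.7% and 23.2% of all genes. The median log2 difference of the 37 was -0.13. Ndufa1, a small subunit of the membrane arm that is needed for assembly, measured 239.72, 232.08 and 238.32 TPM in control and 167.58, 172.11 and 190.91 TPM in mannose libraries. The controls lay within a few percent of each other and all mannose libraries were below them. The log2 change was -0.42 (SE 0.0756, adjusted p = 0.00662), and the call held in all 6 fits that left out a library. The call was lost with all 16 libraries in 1 fit. Ndufs8, a core iron-sulphur subunit on the path to coenzyme Q, measured 101.2, 95.59 and 113.49 TPM in control and 74.79, 76.02 and 81.1 TPM in mannose libraries, again without overlap. Its log2 change was -0.41 (SE 0.0895, adjusted p = 0.0130), and it was lost without mannose 2 (adjusted p = 0.0569).

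Of the other core subunits of complex I, the 5 described here did not pass, and they lay on both sides of 0. Ndufv1, which binds NADH, measured 56.0 ± 4.26 TPM without and 59.7 ± 2.49 TPM with mannose (SD, n = 3 each), a log2 difference of 0.09. Ndufs1, Ndufs3, Ndufs7 and Ndufv2 had log2 differences of -0.03, 0.08, -0.10 and -0.07. Among these core subunits, Ndufs8 was therefore the only one past the threshold. Of the accessory subunits, Ndufb8 (208 ± 12.5 and 176 ± 9.55 TPM, log2 -0.24, adjusted p = 0.0544) and Ndufa11 (log2 -0.40, adjusted p = 0.0546) lay just outside the threshold on the low side, and Ndufa6 (log2 0.30, adjusted p = 0.0748) on the high side. Quantile normalization turned Ndufa6 into a rise past the threshold and left Ndufb8 outside it, while median-ratio scaling made Ndufb8 and Ndufa11 pass.

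Complex II links the chain to the tricarboxylic acid cycle as succinate dehydrogenase, and 1 of its 4 genes fell (25%, against 11.7% of all genes). Sdhb, the iron-sulphur subunit, measured 132.23, 127.42 and 131.65 TPM in control and 84.57, 91.28 and 107.8 TPM in mannose libraries. Every mannose library was lower than the controls, with mannose 3 the nearest to them. The log2 change was -0.47 (SE 0.102, adjusted p = 0.0131), lost without mannose 2 (adjusted p = 0.0579). Sdha, the flavoprotein that oxidises succinate, measured 95.4 ± 9.92 and 111 ± 8.10 TPM (log2 0.22, adjusted p = 0.145). The anchors Sdhc (68.0 ± 2.22 and 70.2 ± 2.94 TPM) and Sdhd (109 ± 3.06 and 113 ± 3.36 TPM) had log2 differences of 0.04 each, that of Sdhd turning to -0.08 after median-ratio scaling. Sdhb was therefore the highest of the 4 genes in control and lay below Sdha and Sdhd in the mean of the mannose libraries.

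In complex III, 0 of 8 members passed by limma and 0 had an unadjusted p under 0.05, against 34.9% and 46.3% of all genes. The smallest adjusted p was 0.246, for Uqcrfs1, the Rieske iron-sulphur protein (75.7 ± 2.60 and 69.7 ± 1.59 TPM, log2 -0.12). Uqcrq (179 ± 45.7 and 144 ± 20.1 TPM, log2 -0.30) and Uqcr11 (191 ± 8.62 and 171 ± 31.0 TPM, log2 -0.17) varied more between libraries. For Uqcrc1, a core protein, the log2 difference was -0.003 with a 95% interval from -0.17 to 0.17, so a change of the size seen in Ndufa1 lay outside it. Uqcrb and Uqcrc2 had log2 differences of 0.07 and 0.02.

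Complex IV, which reduces oxygen, had 4 members lower and 1 higher of 17 tested (23.5% and 5.88%), against 11.7% and 23.2% of all genes. The median log2 difference of the 17 was -0.18. Cox5a measured 177.73, 232.83 and 251.11 TPM in control and 135.32, 137.48 and 170.2 TPM in mannose libraries. Its partner Cox5b measured 217.65, 185.63 and 235.13 TPM in control and 134.45, 145.23 and 156.57 TPM in mannose libraries. Both encode subunits on the matrix side of the complex, and neither showed overlap between groups, although control 1 of Cox5a lay close to mannose 3. Cox5b fell by 0.54 on the log2 scale (SE 0.109, adjusted p = 0.00989) and kept its call with each library left out. Cox5a fell by 0.57 (SE 0.153, adjusted p = 0.0280). The call was lost without control 2, control 3, mannose 1 or mannose 2, and with no filter on low values.

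Cox4i1, the most abundant member in the CD8 libraries, measured 801.75, 827.46 and 849.37 TPM in control and 708.32, 724.13 and 711.94 TPM in mannose libraries. The change was small and even, with a log2 value of -0.21 (SE 0.0635, adjusted p = 0.0423). It was called in 1 of the 6 fits that left out a library, that without mannose 3. The call was also lost after quantile normalization, with no filter, with replicate numbers as a block and with all libraries in 1 fit. Cox6b2, the testis isoform of a subunit on the outer face of the complex, was low and measured 7.95, 8.24 and 5.78 TPM in control and 3.99, 2.09 and 1.97 TPM in mannose libraries. It had the largest fall among the members, with a log2 value of -1.20 (SE 0.247, adjusted p = 0.0106). Its call held in all 6 fits that left out a library. Its general counterpart Cox6b1 measured 505 ± 49.0 and 432 ± 41.9 TPM and did not pass (adjusted p = 0.140). For Cox8a the controls spread widely (488 ± 177 TPM), and the log2 difference of 0.002 had an interval from -0.65 to 0.65, so a difference of the size seen in Cox5b was not detectable for that gene. Cox6a1 (467 ± 97.3 and 407 ± 37.0 TPM), Cox7a2 (191 ± 10.7 and 174 ± 9.31 TPM) and Cox7a2l, a factor that joins complexes III and IV (226 ± 8.53 and 214 ± 3.06 TPM), had log2 differences of -0.18, -0.13 and -0.08 and did not pass.

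Ndufa4l2 moved against the rest. It measured 11.08, 12.19 and 5.79 TPM in control and 35.29, 34.53 and 14.59 TPM in mannose libraries, so replicate 3 was the lowest of either group and mannose 3 lay near the controls. The log2 change was 1.41 (SE 0.393, adjusted p = 0.0317), a call lost after quantile normalization, without a filter on low values and without each library other than mannose 3. Its counterpart Ndufa4 measured 182 ± 9.79 and 217 ± 20.8 TPM (log2 0.25, adjusted p = 0.0740). Ndufa4l2 made up 5.80%, 5.96% and 3.24% of the summed TPM of the pair in control and 12.8%, 14.2% and 6.78% in mannose libraries. In tumours it measured 39.7 ± 10.8 TPM in control and made up 7.31% to 14.9% of the pair. The CD8 group with more Ndufa4l2 was also the group with higher sums of the epithelial, carcinoma and fibroblast markers given above, although Cdh1 was lower there. The part of such cells in the rise was not tested.

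**Figure D2:**
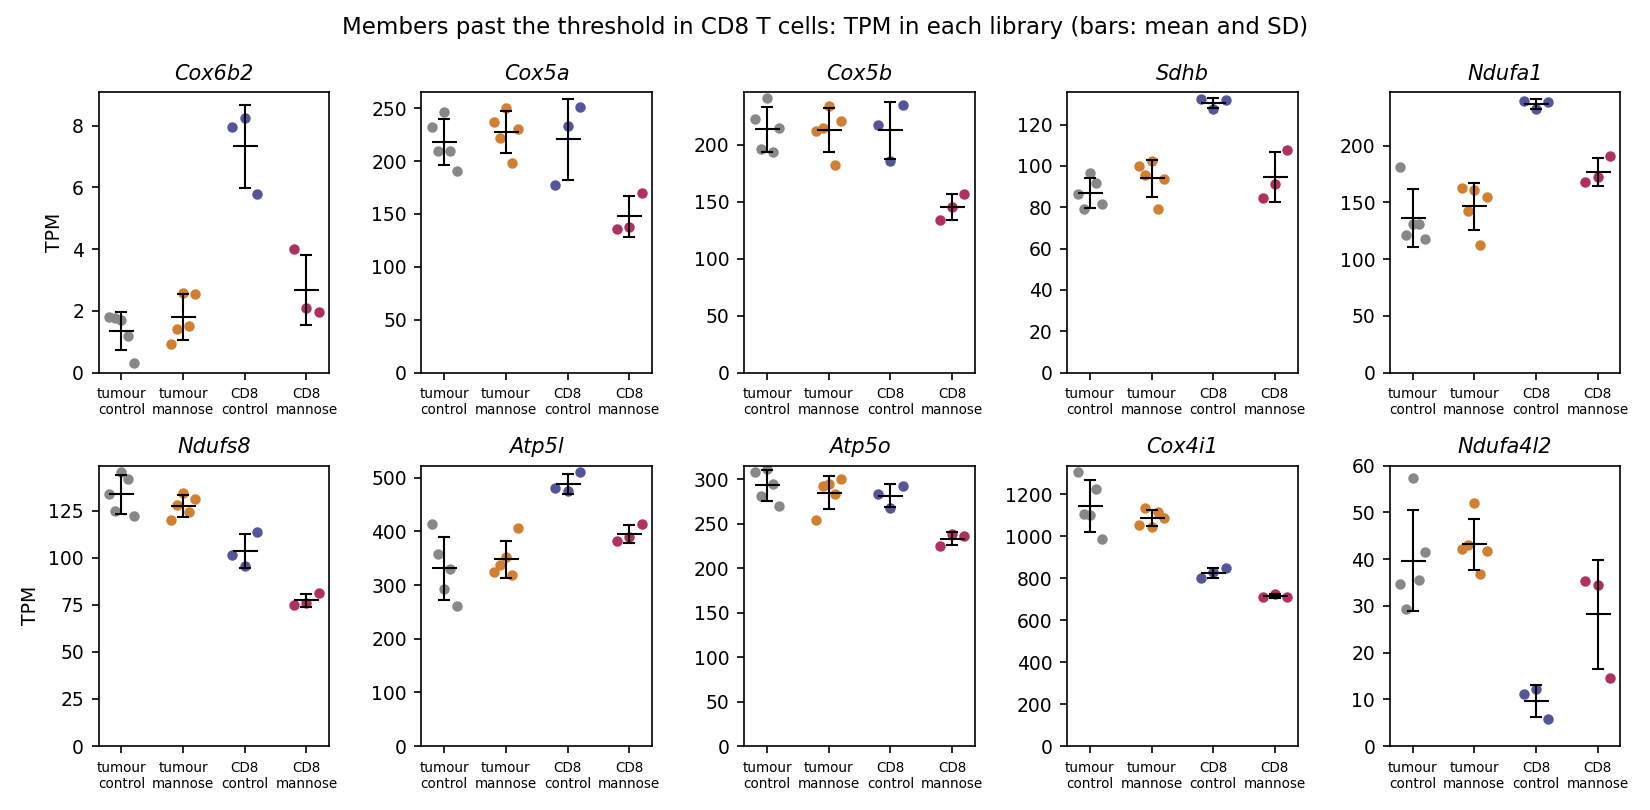
TPM in each library (points) of the 10 members past the threshold in CD8 T cells, in control and mannose tumours and control and mannose CD8 libraries, with bars for mean and SD. Each axis starts at 0. In the CD8 groups the points of control and mannose do not overlap in any panel, while in the tumour groups they overlap in all of them. The panels were chosen by the CD8 test, so the contrast is no further evidence. Of all genes tested, 51.4% did not overlap in CD8 libraries and 1.63% in tumours.

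Of 17 tested members of ATP synthase, 2 fell and 0 rose (11.8% and 0%), against 11.7% and 23.2% of all genes. The median log2 difference of the 17 was -0.14. Atp5l, subunit g of the membrane part, measured 481.48, 475.93 and 510.48 TPM in control and 381.9, 390.04 and 413.97 TPM in mannose libraries. Atp5o, the OSCP subunit that ties the catalytic head to the stalk, measured 283.67, 267.36 and 292.94 TPM in control and 224.56, 238.16 and 236.79 TPM in mannose libraries. Neither gene showed overlap. The log2 changes were -0.31 (SE 0.0696, adjusted p = 0.0152) and -0.27 (SE 0.0701, adjusted p = 0.0248), both lost after quantile normalization. Atp5l was also lost with all libraries in 1 fit and without control 3, mannose 1 or mannose 2. Among fits that left out a library, Atp5o was called without mannose 3 only. The catalytic head did not pass: Atp5a1 measured 360 ± 5.58 and 336 ± 9.82 TPM (log2 -0.10), Atp5b 744 ± 120 and 613 ± 14.9 TPM (log2 -0.27, adjusted p = 0.116) and the central stalk gene Atp5c1 314 ± 2.62 and 299 ± 3.21 TPM. For Atp5c1 the log2 difference was -0.07 with an interval from -0.21 to 0.08. Atp5e, the epsilon subunit, lay just outside the threshold (571 ± 36.6 and 479 ± 29.9 TPM, log2 -0.25, adjusted p = 0.0528), and its difference turned to 0.004 after quantile normalization.

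Respiratory complexes also need subunits encoded in mitochondrial DNA, and the summed TPM of these did not fall with mannose in CD8 libraries. The 13 mitochondrially encoded subunits summed to 42368, 43192 and 38127 TPM in control and 45446, 50371 and 45273 TPM in mannose CD8 libraries. Per TPM of nuclear members this was 2.61, 2.56 and 2.13 in control and 2.96, 3.28 and 2.86 in mannose libraries, without overlap. The short gene mt-Atp8 alone held 46.7% to 54.4% of the sum, and without it, a choice made after its values were seen, the ratios were 1.38, 1.27 and 1.12 against 1.44, 1.49 and 1.53, again without overlap but closer. The mitochondrial sums without mt-Atp8 overlapped between the groups. The nuclear sums in both ratios were lower with mannose, at 15362 to 15812 against 16207 to 17931 TPM. As single genes, 2 of 13 rose and 0 fell (15.4% and 0%), against 23.2% and 11.7% of all genes. At an unadjusted p under 0.05 by limma, 2 were higher and 2 lower. The gene mt-Cytb, the core of complex III, rose from 2271 ± 112 to 2739 ± 142 TPM (log2 0.27, adjusted p = 0.0375) and mt-Nd4, a proton-pumping subunit of complex I, from 1461 ± 56.8 to 1723 ± 95.2 TPM (log2 0.24, adjusted p = 0.0492), and each of these calls was kept in 1 of 6 fits that left out a library. The median of the 13 was 0.004, with single values from -0.59 for mt-Nd3 to 1.03 for mt-Co2, neither past the threshold.

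**Figure D3:**
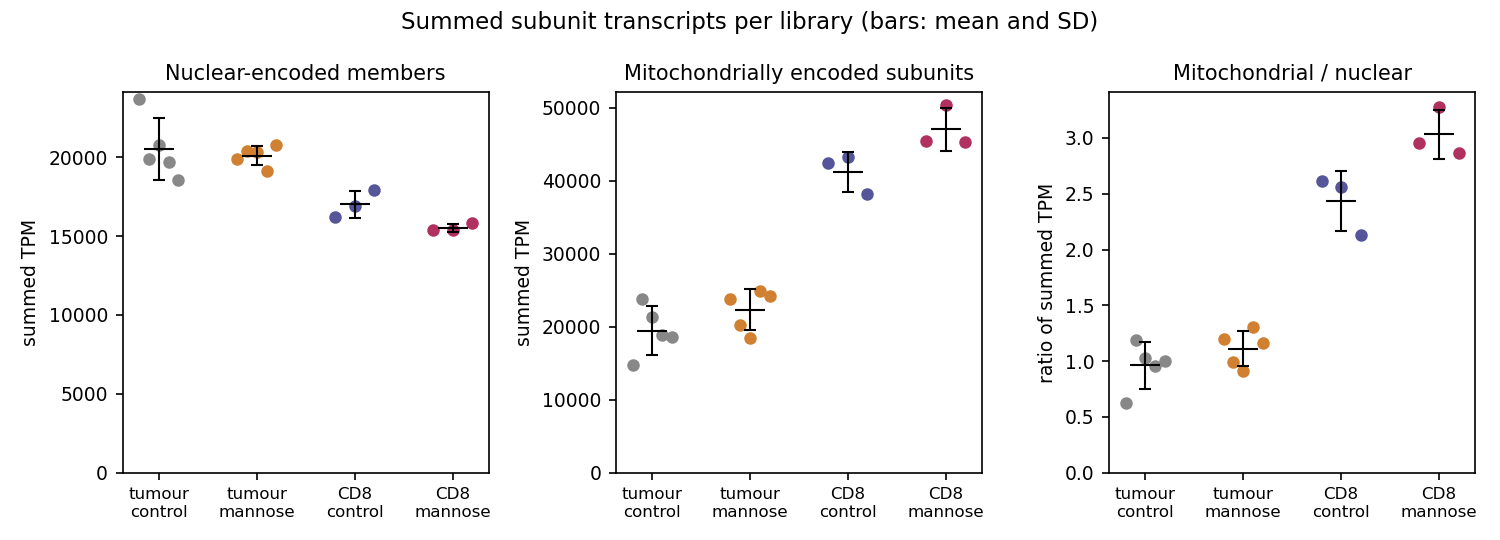
Summed TPM per library (points) of the nuclear members (left), of the 13 mitochondrially encoded subunits (middle) and their ratio (right), in control and mannose tumours and control and mannose CD8 libraries, with bars for mean and SD. The ratio is 2.13 to 2.61 in control and 2.86 to 3.28 in mannose CD8 libraries, and 0.621 to 1.19 and 0.912 to 1.30 in control and mannose tumours.

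Other genes of mitochondrial energy metabolism were read from lists and set beside the members. Of 44 tested assembly factors, which build the complexes, 7 rose and 2 fell (20.5% called, against 34.9% of all genes; median log2 difference 0.16). Sco2, which delivers copper to complex IV, was at 4.98 ± 0.436 TPM in control and rose to 9.72 ± 0.679 TPM (log2 0.84, adjusted p = 0.00394), as did the complex III factor Uqcc3 from 46.9 ± 3.62 to 70.3 ± 3.04 TPM (log2 0.57, adjusted p = 0.00411) and the complex IV factor Cox20 from 75.5 ± 2.57 to 98.2 ± 5.64 TPM (log2 0.38, adjusted p = 0.0112). Coa5, also of complex IV, fell from 54.4 ± 1.90 to 40.7 ± 2.18 TPM (log2 -0.41, adjusted p = 0.00982). Factors for complex IV thus moved both ways, as did its subunits, of which 4 fell and 1, Ndufa4l2, rose.

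Of 17 enzymes of the tricarboxylic acid cycle and of pyruvate entry, 5 rose and 1 fell (35.3% called, near the share of all genes; median 0.02). The largest was Idh2, the mitochondrial isocitrate dehydrogenase that makes NADPH, from 36.6 ± 7.76 to 107 ± 20.3 TPM (log2 1.52, adjusted p = 0.00271), which also passed with the like libraries averaged (adjusted p = 0.0364). The tumour means of Idh2, 199 TPM without and 195 TPM with mannose, were above either CD8 group. Pdha1 of pyruvate dehydrogenase (log2 0.62, adjusted p = 0.00691) and Suclg2 (log2 0.77, adjusted p = 0.0234) rose, and Mdh2, malate dehydrogenase, fell from 259 ± 12.9 to 208 ± 15.4 TPM (log2 -0.31, adjusted p = 0.0261). Among 12 tested regulators of mitochondrial biogenesis, 2 rose and 1 fell (25% called, against 34.9% of all genes, with a median of 0.22). These were Twnk, the helicase of mitochondrial DNA (log2 0.70, adjusted p = 0.00926), Polrmt, the mitochondrial RNA polymerase (log2 0.59, adjusted p = 0.0339), and Gabpb1, a subunit of the factor that binds the ETS motif searched above, which fell from 45.6 ± 3.77 to 32.8 ± 1.99 TPM (log2 -0.46, adjusted p = 0.0119).

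The carriers that exchange ADP for ATP changed in opposite directions. Slc25a4, the isoform of heart and muscle, rose from 134 ± 5.77 to 192 ± 10.6 TPM (log2 0.52, adjusted p = 0.00358), and Slc25a5, the isoform of dividing cells, fell from 471 ± 21.6 to 356 ± 27.5 TPM (log2 -0.41, adjusted p = 0.0102). The porin Vdac1 rose (log2 0.41, adjusted p = 0.0165), and the uncoupling protein gene Ucp2, high in immune cells, fell from 676 ± 29.5 to 380 ± 138 TPM (log2 -0.89, adjusted p = 0.0254). In all, 2 of 7 tested carriers, porins and uncouplers rose and 3 fell (71.4% called, against 34.9% of all genes). Of 13 genes of coenzyme Q synthesis and use 1 rose (Coq8b, log2 0.42) and 1 fell (Coq10b, log2 -0.42). Of 7 subunits and carriers outside the symbol rule 1 rose, the electron transfer flavoprotein Etfa (71.5 ± 1.11 to 89.3 ± 3.96 TPM, adjusted p = 0.0161). These were 15.4% and 14.3% called, against 34.9% of all genes. Ribosomal protein genes had 18 rises and 1 fall among 81 tested (22.2% and 1.23%, median 0.18), against 23.2% and 11.7% of all genes. Apart from Idh2, the calls named in these lists were lost with the like libraries averaged, with adjusted p from 0.0508 to 0.220.

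In whole tumours the comparison asks whether the supplement shifted the chain in the tissue as a whole. Of the members 0 of 84 passed, and of all genes 0 of 13282 (0%), with a smallest adjusted p of 0.754 by limma. At an unadjusted p under 0.05 there was 1 member, Cox7b, against 6.23% of all genes. The members' median log2 difference was -0.01 with 36 positive and 48 negative, against 0.12 for all genes, and was 0.06 against 0.02 without control 1, -0.03 against -0.005 after quantile normalization and -0.15 against -0.01 after median-ratio scaling. The groups overlapped for every tested member, against 1.63% of all genes without overlap (1.51% higher and 0.128% lower).

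The members nearest to a call, 3 for each direction, were subunits of complexes II, IV and V. Cox7b, a small subunit of complex IV, stood at 204 ± 56.4 TPM without and 276 ± 43.9 TPM with mannose (SD, 5 tumours each; log2 difference 0.47). Atp5pb, of the peripheral stalk of ATP synthase (154 ± 13.8 and 172 ± 10.7 TPM, log2 0.17), and Sdhd (141 ± 13.3 and 156 ± 5.92 TPM, log2 0.15) were also on the higher side. On the lower side were Cox6a2 (log2 -0.99), Cox7a1 (21.4 ± 8.52 and 14.2 ± 5.48 TPM, log2 -0.57) and Atp5g2 (36.0 ± 7.10 and 29.2 ± 3.38 TPM, log2 -0.28). All 6 had an adjusted p of 0.754. The 9 members that fell in CD8 T cells had tumour log2 differences from -0.07 for Cox4i1 to 0.26 for Cox6b2, with 0.06 for Cox5a, -0.006 for Cox5b, 0.11 for Sdhb, 0.11 for Ndufa1, -0.07 for Ndufs8, 0.08 for Atp5l and -0.04 for Atp5o, and 0 of them passed. For Cox4i1 the 95% interval in tumours, -0.27 to 0.13, held its CD8 value of -0.21.

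Control 1 carried much of the spread between control tumours. Its members summed to 23707 TPM against 18542 to 20758 in the other 9 tumours, and 62 of 79 members with a transcript length from GENCODE M21 were above their mean over the tumours. The excess was larger in short transcripts, with a median deviation of 0.35 for those up to 861 bases and 0.09 for longer ones. Atp5a1 was lowest there, with 217.03 TPM against 312.19 to 444.8 TPM in the other controls. In the same library 85 ribosomal protein genes held 27.6% of the TPM, against 18.7% to 24.0% in the other controls, and the ratio of mitochondrially encoded to nuclear subunits was 0.621 against 0.960 to 1.19. Between mannose and control tumours the median log2 difference was -0.011 for the shorter and -0.0485 for the longer members. The Spearman correlation between length and difference was -0.0369 across the 79, which share their libraries. Between mannose and control CD8 libraries the medians were -0.177 and -0.0842, and the correlation was 0.175. Whether length bears on the results was not tested.

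Some muscle isoforms varied among tumours with the level of muscle markers. Cox6a2, the heart and skeletal muscle form of subunit VIa, measured 0.95, 2.69, 10.03, 3.89 and 1.69 TPM in control tumours 1 to 5 and 0.61, 0, 4.3, 0.6 and 1.47 TPM in mannose tumours 1 to 5. Summed TPM of 8 skeletal muscle markers in the same order were 37.66, 150.84, 703.36, 382.63 and 80.84 in control and 30.74, 3.85, 409.08, 6.9 and 103.36 in mannose tumours. Ranked by mean log2 level of the markers and by Cox6a2, 8 of the 10 tumours took the same place and the other two swapped ranks 5 and 6. Cox8b, also of muscle, was at 0 in control 1 and 5 and mannose 1, 2 and 4, highest in control 3 (4.31 TPM) and mannose 3 (3.51 TPM), and at 0.85 TPM in control 4, which ranked 3 by the markers, below control 2 (2.13 TPM) and mannose 5 (1.93 TPM). Cox7a1, though called a heart isoform too, did not follow this order: it was highest in control 1 (34.86 TPM), where muscle markers ranked 7, and ranked 3 in mannose 2 (20.97 TPM), where they ranked 10.

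**Figure D4:**
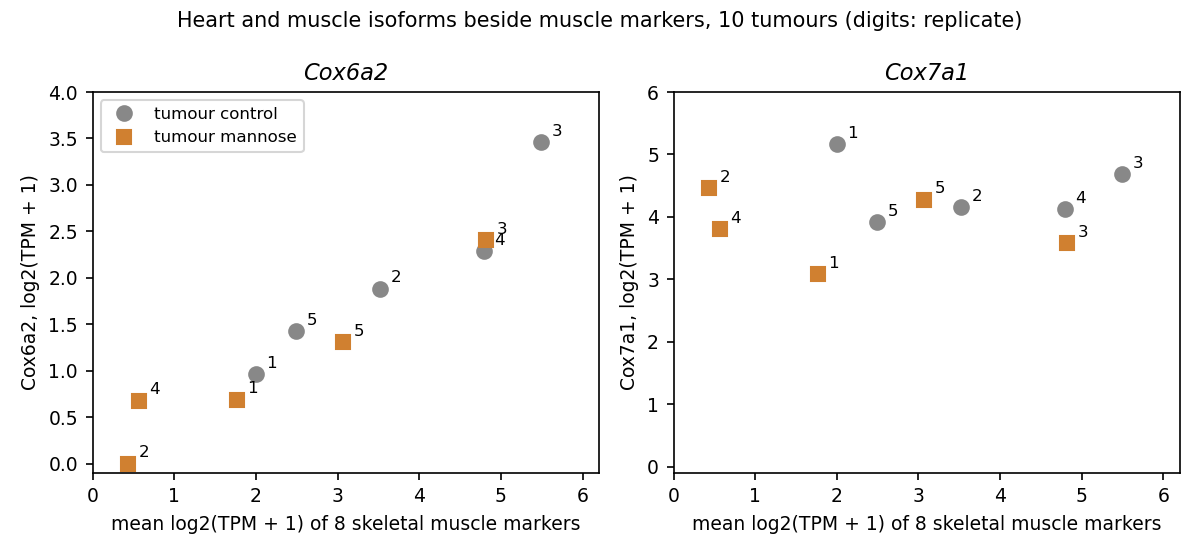
Cox6a2 (left) and Cox7a1 (right) in the 10 tumours on the log2(TPM + 1) scale, against the mean log2(TPM + 1) of 8 skeletal muscle markers; circles are control and squares mannose tumours, and digits are replicates. Cox6a2 climbs with the markers from mannose 2 at 0 TPM to control 3 at 10.03 TPM, and Cox7a1 does not.

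The restricted isoforms were minor beside their general counterparts in every library. Cox4i2, the oxygen-responsive lung form, made up 0.733% to 1.56% of the pair with Cox4i1 in control tumours and 1.01% to 1.66% in control CD8 libraries. Cox7a1 made up 7.58% to 12.4% of its pair with Cox7a2 in control and 4.00% to 9.91% in mannose tumours, and 2.81% to 4.33% in control CD8 libraries. Cox6b2 stood out in CD8 libraries: it made up 1.73%, 1.57% and 1.05% of its pair in control and 0.959%, 0.434% and 0.487% in mannose libraries, and 0.0537% to 0.278% in control tumours. The Cox6b2 share in control CD8 libraries was thus above that of every mannose CD8 library and every control tumour.

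**Figure D5:**
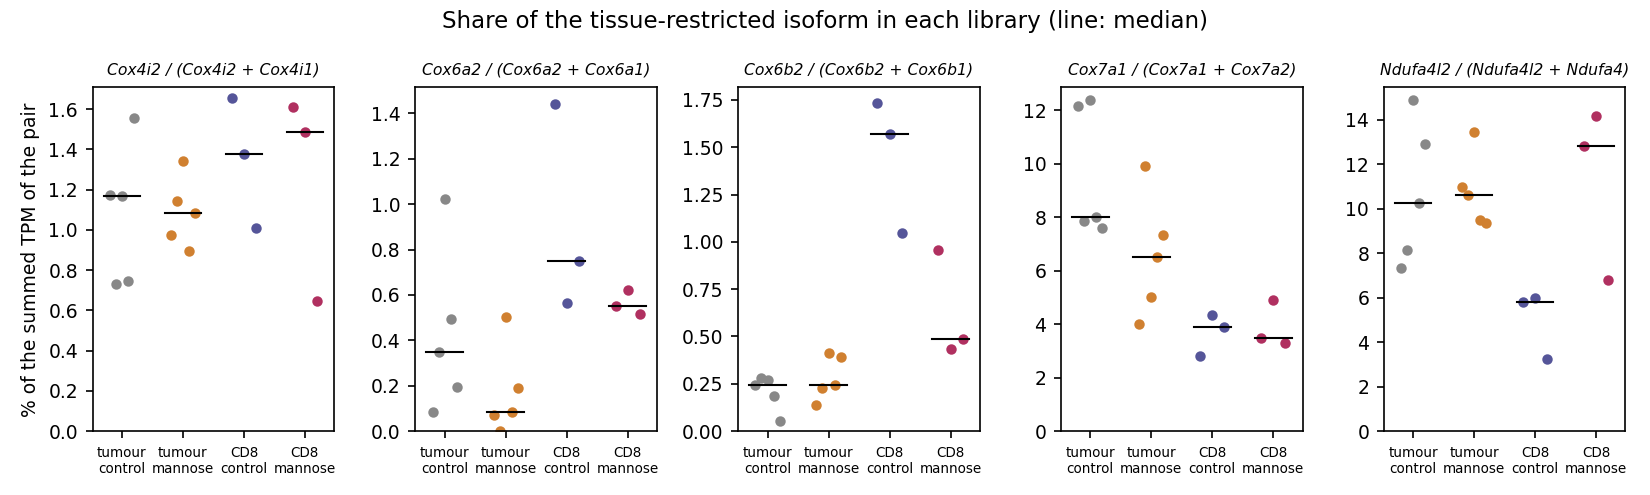
Share of the tissue-restricted isoform in the summed TPM of an isoform pair (percent, vertical axis from 0) in each library, for 5 pairs of complex IV subunits in control and mannose tumours and CD8 libraries, with lines for medians. The Ndufa4l2 share is 3.24% to 5.96% in control and 6.78% to 14.2% in mannose CD8 libraries, and the Cox6b2 share moves the other way.

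Levels in control CD8 libraries and control tumours are set side by side without a test, since the tables of the tissues list different gene sets. Among 84 members the CD8 libraries lay wholly above the tumours for 9 and wholly below for 32, against 37.9% above and 24.6% below among 15498 genes. Higher in tumours were Atp5b (1488 against 744 TPM), Cox8a (987 against 488 TPM), Uqcr10 (671 against 317 TPM), Ndufb9 (338 against 156 TPM) and Ndufa4l2 (39.7 against 9.69 TPM). Higher in CD8 libraries were Ndufa1 (237 against 136 TPM), Sdhb (130 against 87.0 TPM), Ndufs1 (39.8 against 23.2 TPM), Atp5mpl, a small proteolipid of ATP synthase (502 against 311 TPM), and Cox6b2 (7.32 against 1.35 TPM). The 9 members that fell in CD8 T cells held no single place in this order: in control CD8 libraries Ndufa1, Sdhb, Cox6b2 and Atp5l lay wholly above control tumours, Cox5a, Cox5b and Atp5o overlapped them, and Cox4i1 (826 against 1144 TPM) and Ndufs8 (103 against 134 TPM) lay wholly below.

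Whether mannose acted differently on the members in the 2 tissues was tested as an interaction over all 16 libraries. That fit took a shared variance per gene for both tissues. The members varied more between control tumours than between control CD8 libraries (median coefficient of variation 17.6% and 6.87%). Of 85 members, 5 passed, or 5.88% (1 higher and 4 lower), against 18.7% of 15498 genes (11% higher and 7.64% lower), and 9 had an unadjusted p under 0.05, against 31.2% of all genes. Sdhb (difference of log2 effects, CD8 minus tumour, -0.58, SE 0.149, adjusted p = 0.0137), Cox6b2 (-1.46, SE 0.393, adjusted p = 0.0166), Cox5a (-0.63, SE 0.179, adjusted p = 0.0217) and Cox5b (-0.54, SE 0.152, adjusted p = 0.0224) fell in CD8 T cells relative to tumours. Ndufa4l2 rose relative to tumours (1.26, SE 0.400, adjusted p = 0.0387). With the like CD8 libraries averaged 0 of the 5 passed (adjusted p from 0.0515 to 0.113), and without control tumour 1 there were 11 calls, all 5 among them. Leaving out CD8 mannose 1 or mannose 2 left 1 call each, and leaving out CD8 control 3 left 2. Over the 16 fits that each left out a library, Sdhb and Cox6b2 were called in 15, Cox5a and Cox5b in 12 and Ndufa4l2 in 6. Ndufa4l2 was also lost with no filter (adjusted p = 0.0810), Cox5a and Cox5b with median-ratio scaling (0.0788 and 0.0883) and Cox6b2 with the smaller pseudocount (0.0539). For the other 5 members that fell in CD8 T cells the difference between tissues did not pass (adjusted p = 0.0628 for Ndufs8, 0.0747 for Ndufa1, 0.148 for Atp5l, 0.186 for Atp5o and 0.486 for Cox4i1).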

How the data were processed

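RNA sequencing libraries of 10 whole HM1 tumours and 6 sorted CD8 T cell samples were read from 1 table per library. The deposited values are TPM as the authors made them, a unit read from the values, which have 2 decimals and sum to between 993815 and 997810 per library. Per the submitters' processing notes, fastp, HISAT, RSEM and the build GRCm39 were used, with versions and annotation not given in the sources used here. No counts were used, so depth is unknown and no counting interval is given; between 12345 and 14384 symbols reached 1 TPM. Entries that share a symbol were summed. Groups follow the sample labels.

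Log2(TPM + 1) values were fitted with limma 3.58.1 (variance trend) in R 4.3.3, each tissue apart and, for the interaction, all 16 libraries together, with genes kept at 1 TPM or more in 3 CD8, 5 tumour or 3 of all libraries. Adjustment was by Benjamini-Hochberg over all genes tested, with a threshold of 0.05, and fold changes on this scale understate those of low genes. The fits were tested on simulated data. The members, lists, tests and alternatives were chosen with earlier results of these data known, so the members' counts stand as descriptions beside those of all genes. Named are the main subunits and restricted isoforms, the 3 members of each complex with the smallest CD8 p, the highest and lowest member of each complex, the 3 with the smallest tumour p in each direction, the 5 with the smallest interaction p and up to 4 genes past the CD8 threshold of each pathway list. One gene that this rule names is not reported here. Other genes were named after their values were seen: those next to the threshold, those that differ between tissues, and the copies of Ndufb4. Alternatives were the pseudocount (0.1), no filter, quantile normalization, median-ratio scaling, array weights, the replicate number as a block, all libraries in 1 fit, each library left out, like CD8 libraries averaged, and tumour control 1 and mannose 3 left out together. Promoters are RefSeq's and transcript lengths GENCODE's longest coding transcript (79 of 84 members matched). Plots were made in Python 3.11.15 with matplotlib 3.10.9.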

Additional observations from a re-analysis of the deposited data

Results flagged for a closer look

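Of 88 groups of 5 tumours tested for a sample far from the others (44 genes in 2 groups), 5 held one, where chance gives about 1 in 20. In control 1, Ndufv2, an iron-sulphur subunit of complex I, measured 109.81 TPM against at most 61.82 TPM in the other controls, Uqcrb of complex III 290.26 against 184.73 TPM and Ndufa1 180.8 against 131.26 TPM. Ndufs1 of complex I measured 28.69 TPM in control 3, with the nearest control at 22.78 TPM. Ndufv2 was also far from the rest in mannose 5, with 94.19 against 60.46 TPM. Of the 5, 3 fell in control 1, the tumour least like the others.

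The effect of mannose differed between CD8 T cells and tumours for 5 members by the interaction test. The differences of log2 effects (CD8 minus tumour) were -0.63 for Cox5a, -0.54 for Cox5b, -1.46 for Cox6b2 and -0.58 for Sdhb, all lower in CD8 T cells, and 1.26 for Ndufa4l2, which was higher there. With the like CD8 libraries averaged none of the 5 passed by limma (adjusted p from 0.0515 to 0.113), and Ndufa4l2 was called in 6 of the 16 fits that left out a library.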

How the results depend on the processing

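With 10 members past the threshold in CD8 T cells on the TPM scale (1 higher, 9 lower), median-ratio scaling gave 22 (1 and 21), array weights 38 (7 and 31), and averaging like libraries 0; quantile normalization gave 13 (6 and 7), all libraries in 1 fit 8, no filter 7 and the smaller pseudocount 10. Leaving out each library gave 3 (without mannose 2) to 23 (without mannose 3), with 5 without control 3 and 6 without mannose 1. The members' CD8 median of -0.12 was -0.013 with quantile normalization, -0.24 with median-ratio scaling and -0.15 to -0.098 with libraries left out. Of all CD8 calls 66.4% were rises, against 53.7% and 50.7% under those scalings. Of 84 members 25 were positive in CD8 T cells, 41 with quantile normalization and 9 with median-ratio scaling. Among the genes followed singly, those with the smallest p, differences reversed, neither past the threshold, for Atp5e after quantile normalization (0.0043) and Sdhd after median-ratio scaling (-0.080). The tumour median of -0.01 was -0.15 after median-ratio scaling, 0.045 without control 1 and mannose 3, and -0.048 to 0.055 with libraries left out, and 0 tumour members passed in every alternative run. The 5 interaction calls became 3 after median-ratio scaling, 20 with array weights and 0 with like libraries averaged, and 1 to 11 with libraries left out (11 without tumour control 1). The cause was not tested.

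The labels do not say whether replicate numbers pair the libraries, and so few libraries cannot settle it. In CD8 T cells the correlations of same-numbered deviations were 0.057, 0.095 and 0.16, against -0.16 to 0.11 for unlike numbers. In tumours they were -0.51 to 0.28, against -0.35 to 0.48 for unlike numbers. As a block the replicate numbers gave 13 CD8 calls (1 higher, 12 lower), 9 of them among the 10, and 0 in tumours. With TPM alone, depth behind low members such as Cox6b2 is unknown.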
